A study of Mus musculus with 16 samples.

Results

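The first day of imiquimod treatment was compared with day 0 in spleen cells of wild-type mice and of mice labelled PKR knockout. The comparison takes 8 of the 16 libraries of the series: 2 of wild type and 2 of the knockout at day 1, against 2 of wild type and 2 of the knockout at day 0, with genotype as a covariate. All mice were male C57BL/6. The day 1 groups had carried 62.5 mg of a cream with 5% imiquimod on shaved back skin for 1 day, and the day 0 groups none. No group was given a cream without imiquimod, so the drug, the cream, the handling and the passing of a day cannot be told apart. Each library was made from the pooled spleens of 2 mice, so the 8 libraries stand for 16 mice. How much of the PKR gene is deleted is not stated. RNA depleted of ribosomal RNA was sequenced from spleen cells after lysis of red cells. The series was set up to study how PKR and the circular RNAs that bind it act in psoriasis-like inflammation.

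Imiquimod is a small-molecule agonist of TLR7, an endosomal receptor for single-stranded RNA that plasmacytoid dendritic cells, B cells and some macrophages carry. Its adaptor Myd88 leads to IRF7, which switches on type I interferon genes, and to NF-kB, which switches on cytokine genes. Interferon then induces many effector genes through factors that include STAT2 and IRF9. PKR, encoded by Eif2ak2, is one of those effectors, a kinase that binds double-stranded RNA and phosphorylates the translation factor eIF2-alpha. That slows protein synthesis and favours the translation of ATF4, a factor for genes of amino acid supply, which other kinases of eIF2-alpha also engage. The spleen filters blood through red pulp macrophages and holds B cells, T cells and dendritic cells in its white pulp.

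The libraries held between 41010297 and 67333830 fragments. The first principal component of the 2000 most variable genes carried 79.7% of the variance and placed the day 0 libraries between -47.1 and -39.4 and the day 1 libraries between 41.5 and 47.1. Spearman correlation between the 2 libraries of a group was 0.989 to 0.993 across genes, and between libraries of different groups 0.947 to 0.993, so the highest values of both kinds were alike. The wild-type day 1 libraries stood apart in their scaling factors for composition (1.17 and 1.15, against 0.914 to 1.02 in the other 6), and counts of list members without them are given where they moved by over 1.5 times and for some other lists. The second library of each day 1 group held fragments of pancreas genes: 12 exocrine and islet genes together had 145 fragments in the wild-type library and 409 in the knockout library, against 5 or fewer in each of the other 6. Markers of the labelled tissue were present: B cell identity genes summed to 6291 to 7165 CPM and T cell markers to 1448 to 1661 CPM over the day 0 libraries. P-values measure the spread between these pools of mice. In whole spleen cells, fewer cells of a type and less RNA per cell cannot be told apart.

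Promoters of 5 genes are printed because each belongs to a group of genes that rose together on day 1 and holds the DNA motif known for that group's transcription factor. They are RefSeq windows of GRCm38.p6, from 250 bases before to 50 bases after the gene's start, 5′ to 3′ on the gene's strand, with motif matches in capitals. Isg15 has its window at chr4:156200769-156201068 on the minus strand and Ifit3 at chr19:34583279-34583578 on the plus strand. Both hold the interferon-stimulated response element, searched on both strands as GAAA, any 2 bases and GAAA again, which a complex that includes STAT2 and IRF9 binds. The first match begins 78 bases before the start in Isg15, where 3 matches overlap, and 156 bases before it in Ifit3, whose 2 matches are on the other strand. Asns, at chr6:7693160-7693459 on the minus strand, holds the amino acid response motif TGATGNAA of ATF4 23 bases before the start. Mcm5, at chr8:75109259-75109558 on the plus strand, holds 2 overlapping matches, 1 on each strand, to the E2F motif TTTNGCGC, the first 153 bases before the start. Hspa5, at chr2:34771840-34772139 on the plus strand, holds the ER stress element, searched as CCAAT, any 9 bases and CCACG, 65 bases before the start.
Isg15: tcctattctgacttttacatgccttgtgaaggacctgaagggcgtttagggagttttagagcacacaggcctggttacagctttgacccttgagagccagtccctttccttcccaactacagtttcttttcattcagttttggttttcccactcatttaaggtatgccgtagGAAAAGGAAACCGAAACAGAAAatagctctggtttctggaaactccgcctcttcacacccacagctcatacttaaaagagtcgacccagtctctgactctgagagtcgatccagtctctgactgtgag
Ifit3: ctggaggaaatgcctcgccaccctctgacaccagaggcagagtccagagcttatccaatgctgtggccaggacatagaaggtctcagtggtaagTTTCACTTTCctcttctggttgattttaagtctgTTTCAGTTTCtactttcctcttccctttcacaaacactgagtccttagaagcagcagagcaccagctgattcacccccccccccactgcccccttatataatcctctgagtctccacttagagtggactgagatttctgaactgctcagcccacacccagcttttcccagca
Asns: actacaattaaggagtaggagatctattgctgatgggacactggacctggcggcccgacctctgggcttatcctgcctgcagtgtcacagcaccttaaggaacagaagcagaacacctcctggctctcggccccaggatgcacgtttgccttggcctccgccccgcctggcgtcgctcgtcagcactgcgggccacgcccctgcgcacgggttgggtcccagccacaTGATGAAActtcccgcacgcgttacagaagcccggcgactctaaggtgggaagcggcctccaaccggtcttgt
Mcm5: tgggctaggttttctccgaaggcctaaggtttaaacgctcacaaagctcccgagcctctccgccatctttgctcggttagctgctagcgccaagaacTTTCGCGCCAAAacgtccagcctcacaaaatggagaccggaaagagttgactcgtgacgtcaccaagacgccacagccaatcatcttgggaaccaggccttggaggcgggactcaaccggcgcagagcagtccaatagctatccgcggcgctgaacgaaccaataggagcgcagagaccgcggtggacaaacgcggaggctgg
Hspa5: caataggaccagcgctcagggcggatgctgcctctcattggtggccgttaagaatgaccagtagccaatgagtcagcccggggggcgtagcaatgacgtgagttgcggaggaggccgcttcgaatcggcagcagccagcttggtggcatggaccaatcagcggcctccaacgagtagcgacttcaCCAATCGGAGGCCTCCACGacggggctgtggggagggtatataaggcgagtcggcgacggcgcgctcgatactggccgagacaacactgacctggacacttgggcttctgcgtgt

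The interferon motif was in 3.44% of all 32851 promoter windows and in 4.11% of the 10939 tested genes that have one. A gene counts as holding a motif if any of its windows does. It was in 18 of the 37 interferon-stimulated effectors with a window (48.6%) and in 10 of 15 interferon-gamma-type targets (66.7%). The ATF4 motif was in 3.97% of all windows and 2.84% of these tested genes, in 8 of 26 ATF4 targets (30.8%) and in 5 of 13 aminoacyl-tRNA synthetases (38.5%). The E2F motif was in 1.38% of all windows, in 2.79% of these tested genes and in 9 of 27 genes of DNA replication (33.3%). The ER stress element was in 0.119% of all windows, in 0.192% of these tested genes and in 8 of 23 genes of ER folding and secretion (34.8%). The NF-kB motif (GGGA, any base, TTTCC) was in 0.411% of all windows, in 0.548% of these tested genes and in 2 of 16 cytokine genes. The glucocorticoid receptor motif (G, any base, ACA, any 3 bases, TGT, any base, C) was in 0.475% of all windows, in 0.357% of these tested genes and in 2 of 14 glucocorticoid-responsive genes. The lists name known genes of each group, so their shares do not bear on the day 1 change. Of genes called higher by 2-fold or more, 7.41% held the interferon, 5.22% the ATF4, 5.4% the E2F and 0.457% the ER stress motif. Of genes called lower by 2-fold or more, the shares were 3.83%, 3.27%, 1.69% and 0.225%. The NF-kB motif was in 0.823% of the former and 0.902% of the latter, the glucocorticoid receptor motif in 0.457% and 0.676%. A match is a run of letters and not a measured binding site.

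**Figure D1:**
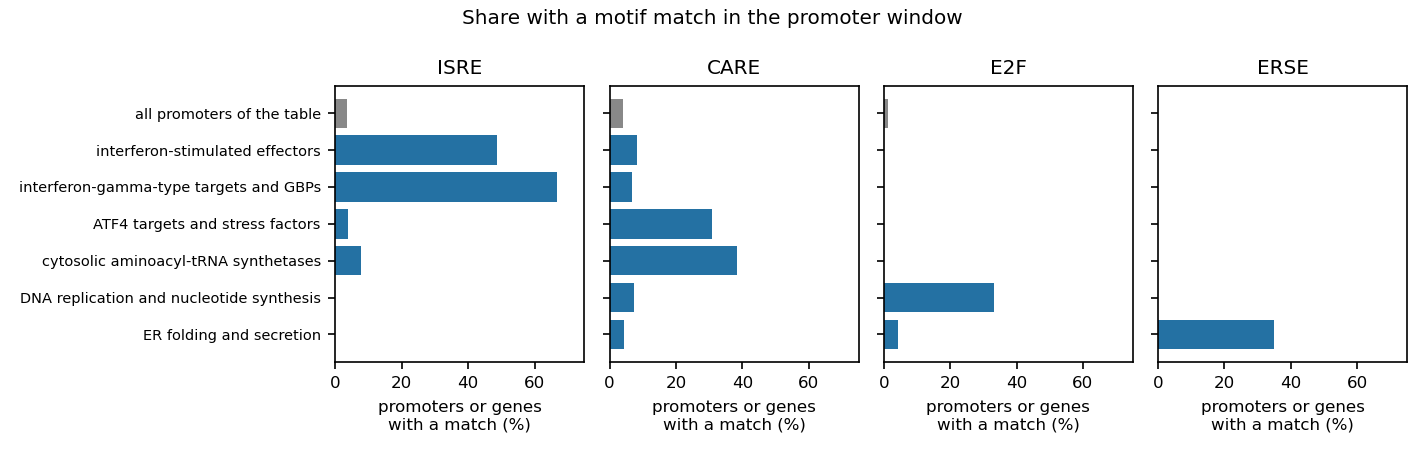
Bars give the percentage with a match to each of 4 motifs. It is a share of windows for all promoters of the table and a share of genes for the lists. The interferon motif (ISRE) reaches 66.7% in the interferon-gamma-type targets, the ATF4 motif (CARE) 38.5% in the aminoacyl-tRNA synthetases, E2F 33.3% in DNA replication and the ER stress element (ERSE) 34.8% in the ER list.

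Eif2ak2, the gene of PKR (mm10, chromosome 17, 78852564 to 78882573, minus strand), was measured first. Levels are given as CPM, edgeR's measure of a gene's fragments relative to all fragments of its library, after scaling for composition. At day 0 it stood at 25.8 and 27.2 CPM in wild type and 12.8 and 15.7 CPM in the knockout. At day 1 it stood at 104 and 99.9 CPM in wild type and 45.4 and 38.8 CPM in the knockout. Every knockout library was below both wild-type libraries of its day, and every day 1 library was above all 4 of day 0. The rise was 1.76 ± 0.11 on the log2 scale (estimate ± SE, adjusted p = 6.65e-08, edgeR quasi-likelihood test with Benjamini-Hochberg adjustment). Fragments of Eif2ak2 were thus counted in the knockout libraries too, and since the deleted part is not named, they say nothing about the protein.

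Of 18042 genes tested, 4977 rose (27.6%) and 4973 fell (27.6%) at an adjusted p under 0.05. A change of 2-fold or more was called for 1769 genes that rose (9.8%) and 1784 that fell (9.89%). All 4 day 1 libraries lay above all 4 of day 0 for 4729 genes (26.2%) and below them for 4394 (24.4%). In all 55.1% of genes were called, so the counts of members that rose or fell below are read against 27.6% in each direction. The median change of all genes was -0.05 on the log2 scale. With limma on FPKM values plus 1, which are not scaled for composition, 67.5% of called genes rose, against 50% here, and the median of all genes lay 0.121 higher. Without the wild-type day 1 libraries 3864 genes rose and 3459 fell.

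Among the largest rises, ranked by the smaller of the changes in the 2 genotypes, were those of Ccl12, Saa3, Tmed6, Cfb, Bcat1, Acod1, Slc7a3, Spon1, Ifi44, Alpl and Slfn4. Ccl12, a chemokine that attracts monocytes, had no fragment in any day 0 library and 0.749, 0.468, 0.778 and 0.644 CPM in the 4 of day 1. That is at least 10.1-fold higher against a floor of 3 fragments per day 0 library. Saa3, an acute-phase serum amyloid, stood at 0.0689, 0.114, 0.217 and 0.0530 CPM at day 0 and at 14.7 and 11.3 CPM in wild type and 13.8 and 29.7 CPM in the knockout at day 1. Slfn4, a myeloid gene of the Schlafen family, stood at 20.5, 20.2, 16.7 and 23.6 CPM at day 0 and at 599.9 and 244 CPM in wild type and 411 and 365 CPM in the knockout at day 1. For these 3 genes every day 1 library lay above every day 0 library, as the ranking required. Cfb, complement factor B, rose from 1.74 ± 0.354 to 69.6 ± 21.4 CPM (SD, n = 4), and its fragments are shared with the overlapping read-through gene Gm20547. Acod1, which makes itaconate in activated macrophages, rose by 5.12 ± 0.45 on the log2 scale. Alpl, the tissue alkaline phosphatase, rose from 2.46 ± 0.857 to 73.2 ± 7.48 CPM, and Spon1, a matrix protein, from 0.569 ± 0.283 to 22.9 ± 6.14 CPM.

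The largest falls were of Cd209d, Cd209a, Cd163, C6, Abca9, Hpgd, Siglech, Mrc1, Serpinb10, Trf, Cd55b and Ccr3. Cd209a, a C-type lectin of dendritic cells and macrophages, stood at 6.82 and 5.28 CPM in wild type and 7.46 and 9.09 CPM in the knockout at day 0. At day 1 it stood at 0.0333 and 0 CPM in wild type and 0.0502 and 0.172 CPM in the knockout, with 12 fragments in all against 1309 at day 0. Cd209d kept 1 fragment over the 4 day 1 libraries, against 202 at day 0. Both lectins were close to undetected in all 4 day 1 libraries, and they belong to a family of similar genes among which the counting could split reads. Abca9, a lipid transporter of macrophages, fell from 11.5 ± 3.08 to 0.862 ± 0.412 CPM, and Serpinb10, a protease inhibitor of bone marrow cells, from 8.11 ± 2.45 to 0.863 ± 0.292 CPM.

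**Figure D2:**
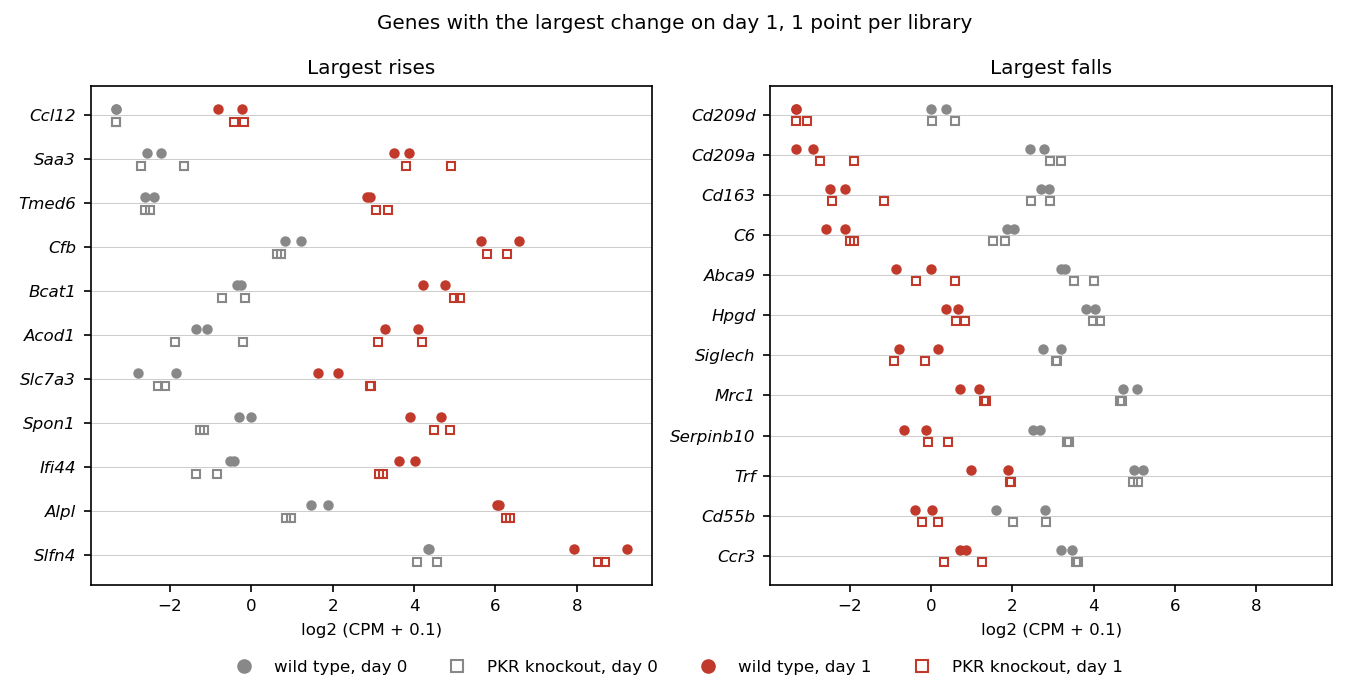
Each point is 1 library, with the gene's level as log2 of CPM plus 0.1 on the x axis, for genes among the 12 largest rises and the 12 largest falls by day and genotype. For every gene shown the 4 day 1 libraries lie on 1 side of the 4 day 0 libraries, as the ranking required.

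**Figure D3:**
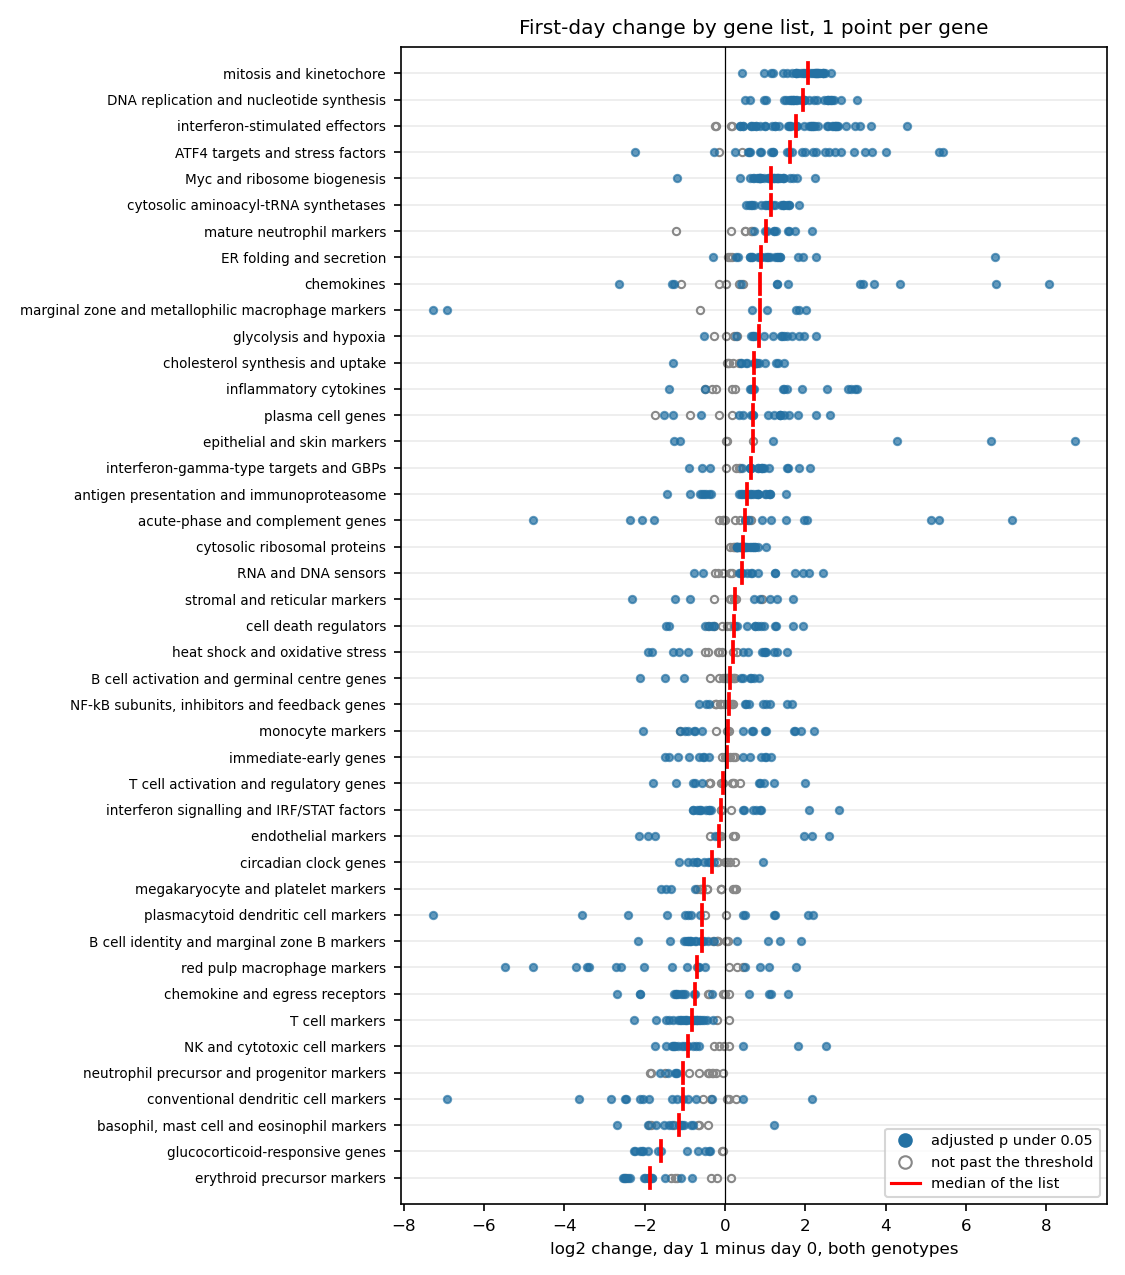
Each point is 1 gene of a list and gives its log2 change from day 0 to day 1 over both genotypes, and vertical red bars give list medians. Filled points passed the threshold. Among the lists plotted, which leave out pancreas and fat markers, medians run from 2.05 for mitosis to -1.88 for erythroid precursors.

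Interferon-stimulated effectors rose almost as a whole. Of 49 tested members 45 rose, where 27.6% of all genes did, and 0 fell, with a median change of 1.76 on the log2 scale. Isg15, a ubiquitin-like protein that is attached to other proteins during infection and whose promoter is printed above, stood at 5.12, 4.84, 4.40 and 4.53 CPM at day 0. At day 1 it stood at 80.4 and 55.8 CPM in wild type and 51.5 and 46.9 CPM in the knockout. Ifit3, which restricts viral RNA, rose from 11.8 ± 1.45 to 115 ± 40.6 CPM (SD, n = 4), and Ifit3b, a close copy with which it can share reads, from 4.84 ± 0.658 to 50.4 ± 17.8 CPM. For both genes the wild-type day 1 libraries lay above those of the knockout, a difference that was not called for either gene (adjusted p = 0.384 and 0.602). Ifi44 rose by 4.54 ± 0.17 on the log2 scale, Usp18, which removes Isg15 and damps the interferon receptor, by 3.00 ± 0.14, and Ifit1 by 2.80 ± 0.17. The antiviral genes Oas3, Mx1 and Rsad2 rose by 2.78 ± 0.12, 2.56 ± 0.12 and 1.77 ± 0.28. Without the wild-type day 1 libraries 42 members rose and 1 fell, and without those of the knockout 44 rose.

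Among genes that interferon-gamma is best known to induce 17 of 24 tested members rose and 3 fell (median 0.64), with 15 rising without the wild-type day 1 libraries. Gbp10, a guanylate-binding protein, rose from 6.70 ± 1.143 to 29.2 ± 6.39 CPM, and Gbp6, a similar gene that may share its reads, from 15.5 ± 1.98 to 46.9 ± 10.6 CPM. Iigp1 rose from 6.27 ± 0.869 to 22.6 ± 5.74 CPM, and Irgm1, a GTPase linked to autophagy, from 43.9 ± 3.57 to 128 ± 17.0 CPM. The members that fell were Gbp8, Ciita and Gch1. The call of Gbp8 was lost without both knockout day 1 libraries or the second day 1 library of each genotype (adjusted p = 0.122 to 0.296), and limma on unscaled FPKM values plus 1 called neither Gbp8 nor Gch1 (adjusted p = 0.268 and 0.0502). Ifng itself was not called, at 1.61 ± 0.534 CPM at day 0 and 1.11 ± 0.162 CPM at day 1 (adjusted p = 0.0939). Ifnb1 had 2 fragments in all 8 libraries together and was not tested.

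Among sensors of nucleic acid 14 of 21 tested members rose and 2 fell (median 0.43), with 10 rising without the wild-type day 1 libraries. The cytosolic RNA sensors Dhx58 and Ifih1 rose by 2.43 ± 0.12 and 1.93 ± 0.11 on the log2 scale, Zbp1, a sensor of Z-form nucleic acid, by 2.08 ± 0.11 and Ifi204, a DNA sensor, by 1.73 ± 0.21. Tlr7, the receptor of imiquimod, stood at 31.5, 34.5, 33.9 and 41.7 CPM at day 0 and at 55.3, 57.1, 50.2 and 45.7 CPM at day 1. Its rise of 0.56 ± 0.11 lost its call without the wild-type day 1 libraries (adjusted p = 0.0599). Tlr9, the receptor for DNA, rose by 0.83 ± 0.13 and Myd88 by 0.68 ± 0.09, whereas Tlr8, a related receptor, fell by 0.78 on the log2 scale, a call lost without the second knockout day 0 library (adjusted p = 0.0556).

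In interferon signalling 8 of 22 tested members rose and 10 fell (median -0.11), with 8 falling without the wild-type day 1 libraries, and the median was 0.10 at its highest, with limma on unscaled FPKM values. Irf7, the factor that amplifies type I interferon, stood at 34.9, 25.8, 27.2 and 21.2 CPM at day 0 and at 249 and 192 CPM in wild type and 181 and 163 CPM in the knockout at day 1. Socs3, a feedback inhibitor of cytokine receptors, rose from 21.3 ± 2.89 to 89.8 ± 16.1 CPM, Stat2 from 37.2 ± 2.95 to 69.0 ± 4.81 CPM and Irf8 from 127 ± 19.3 to 233 ± 27.4 CPM. The receptor chains Ifnar1 and Ifngr1 fell, from 64.7 ± 4.12 to 46.3 ± 2.42 CPM and from 82.9 ± 5.20 to 51.3 ± 3.01 CPM, and so did the kinase Jak2, from 114 ± 13.4 to 65.8 ± 9.46 CPM. The fall of Ifnar1 was not called by limma on unscaled FPKM values plus 1 (adjusted p = 0.066).

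Of 28 cytokine genes listed, 20 were tested, 13 rose and 2 fell. Il6, a driver of the acute-phase response, stood at 0.322 and 0.552 CPM in wild type and 0.716 and 0.768 CPM in the knockout at day 0. At day 1 it stood at 4.76 and 5.34 CPM in wild type and 8.66 and 4.25 CPM in the knockout. Il10, an inhibitory cytokine, rose from 0.323 ± 0.0796 to 3.06 ± 0.890 CPM, and Il1rn, the antagonist of the Il1b receptor, from 2.34 ± 0.347 to 20.8 ± 5.00 CPM. Il1b rose from 21.1 ± 8.18 to 78.0 ± 26.4 CPM, Tnf from 7.99 ± 1.09 to 21.6 ± 6.12 CPM and Il12b, a subunit of cytokines that direct T cells, from 0.268 ± 0.0787 to 1.54 ± 0.288 CPM. Pro-inflammatory and inhibitory cytokines rose in the same libraries. Lif rose by 3.06 ± 0.30 on the log2 scale, and Il4, a cytokine of helper T cells and mast cells, fell by 1.40, a call lost without both knockout day 1 libraries or the second day 1 library of each genotype (adjusted p = 0.0813 to 0.197).

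Among chemokines 10 of 18 tested members rose and 3 fell (median 0.87). Cxcl10, an interferon-induced ligand of Cxcr3, rose from 0.920 ± 0.0397 to 12.2 ± 3.32 CPM, Cxcl2, which attracts neutrophils, from 0.750 ± 0.260 to 8.23 ± 1.83 CPM and Ccl2, which attracts monocytes, from 0.179 ± 0.0564 to 1.83 ± 0.680 CPM. Ccl7 had no fragment at day 0 and stood at 0.216, 0.308, 0.326 and 0.193 CPM at day 1, at least 3.98-fold higher against the floor used for Ccl12. Cxcl11 had 2 fragments at day 0 and 58 at day 1. Ccl12 and Ccl7, with no fragment at day 0, could only be called as rises. Without the wild-type day 1 libraries 6 chemokines rose. The number was also 6 when only genes with an FPKM of 1 or more in 4 or more libraries were kept.

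The receptors for chemokines and for exit from the spleen mostly fell: 4 of 22 tested members rose and 13 fell (median -0.76). Cxcr4, which holds cells in bone marrow and follicles, stood at 191 and 165 CPM in wild type and 207 and 209.7 CPM in the knockout at day 0 and at 51.1 and 54.7 CPM in wild type and 40.5 and 32.7 CPM in the knockout at day 1. S1pr1, the receptor lymphocytes need to leave lymphoid organs, fell from 174 ± 16.1 to 83.5 ± 22.1 CPM. Xcr1, of cross-presenting dendritic cells, fell by 2.12 on the log2 scale. Cxcr2, of neutrophils, rose by 1.57 ± 0.22 and Cxcr3, of activated T cells, by 0.61 ± 0.14, the latter a call lost without the wild-type day 1 libraries (adjusted p = 0.119).

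Among acute-phase and complement genes 10 of 23 tested members rose and 4 fell (median 0.50). Saa3, Cfb and Acod1 led the rises, and C6, a subunit of the membrane attack complex, fell from 3.45 ± 0.531 to 0.131 ± 0.0453 CPM. Saa1 and Saa2, the forms made by liver, had no fragment in any of the 8 libraries. In the NF-kB list 8 of 22 tested members rose and 3 fell (median 0.10), and the median was -0.01 without the first knockout day 1 library. Tnip3 rose by 1.66 ± 0.26 on the log2 scale, Ptgs2, the inducible cyclooxygenase, by 1.54 ± 0.27, Traf1 by 1.12 ± 0.10 and Ier3 by 1.02 ± 0.25.

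Genes of antigen presentation split by class. Of 27 tested, 19 rose and 8 fell, and the 8 were class II genes and their helpers: H2-Aa, H2-Ab1, H2-Eb1, Cd74, H2-DMa, H2-DMb1, H2-Oa and H2-Ob. The class I heavy chain H2-K1 rose from 730.2 ± 137 to 1147 ± 69.5 CPM and its partner B2m from 703 ± 113 to 1132 ± 149 CPM. Tap1, which carries peptides into the ER, stood at 119, 86.4, 100.5 and 84.2 CPM at day 0 and at 203, 194, 189 and 192 CPM at day 1. The immunoproteasome genes Psmb9 and Psme1 rose by 1.11 ± 0.13 and 1.11 ± 0.09 on the log2 scale, and H2-T22 by 1.51 ± 0.11. Class I genes are a family of similar sequences, so the split of reads among them is uncertain. Ciita, the master regulator of class II genes, stood at 214, 189, 217 and 187 CPM at day 0 and at 102, 119, 104 and 109.9 CPM at day 1. H2-Aa fell from 756 ± 84.5 to 509.7 ± 74.9 CPM, Cd74, the invariant chain, from 1684 ± 203 to 1271 ± 109 CPM, H2-DMb1 from 61.5 ± 4.42 to 33.7 ± 2.62 CPM and H2-Ob from 240.2 ± 19.3 to 89.0 ± 17.6 CPM. The call of B2m was lost without both wild-type day 1 libraries (adjusted p = 0.0615), that of H2-Aa without both knockout day 1 libraries (adjusted p = 0.15) and that of Cd74 without both knockout day 1 libraries or the second day 1 library of each genotype (adjusted p = 0.0526 to 0.218). H2-Ab1 fell by 0.34 (adjusted p = 0.0356), with the groups overlapping, a call lost in 12 of 24 alternatives. Limma on unscaled FPKM values plus 1 called none of H2-Aa, H2-Ab1 and Cd74 lower (adjusted p = 0.108, 0.528 and 0.333), nor H2-Eb1 and H2-DMa (adjusted p = 0.182 and 0.114). Without the knockout day 1 libraries 2 of the class II genes fell, and without those of wild type 7, with 14 members of the whole list rising.

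DNA replication rose in full: 32 of 32 members rose, with a median of 1.95 on the log2 scale, and the groups did not overlap for any of them, which was the case upward for 26.2% of all genes. Mcm10, which helps to start replication forks, stood at 2.94, 3.77, 2.34 and 2.36 CPM at day 0 and at 27.3, 28.3, 26.6 and 28.2 CPM at day 1. Mcm5, a subunit of the replicative helicase whose promoter is printed above, rose from 28.0 ± 2.97 to 136 ± 4.34 CPM, and Pcna, the replication clamp, from 52.6 ± 4.40 to 151 ± 5.55 CPM. The fork genes Gins2, Gins1 and Cdc45 rose by 2.89 ± 0.18, 2.70 ± 0.17 and 2.67 ± 0.12. Mitosis and kinetochore genes also rose in full, 30 of 30, with a median of 2.05. Bub1, a checkpoint kinase, rose from 3.37 ± 0.917 to 20.8 ± 2.09 CPM, Plk1, a mitotic kinase, from 2.88 ± 0.750 to 16.2 ± 1.11 CPM, Ccnb1, the cyclin of mitosis, from 4.93 ± 1.27 to 26.5 ± 1.70 CPM and Top2a, which untangles DNA, from 50.6 ± 10.1 to 272 ± 22.4 CPM. Mki67, the proliferation marker, stood at 77.5 and 180.3 CPM in wild type and 79.8 and 135 CPM in the knockout at day 0 and at 339 and 391 CPM in wild type and 369 and 404 CPM in the knockout at day 1. The second day 0 library of each genotype was the higher for Mki67, and its call was lost without both wild-type day 1 libraries or both knockout day 1 libraries (adjusted p = 0.0537 to 0.0565).

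Growth genes rose with them. In the list of Myc and ribosome biogenesis 29 of 30 tested members rose and 1 fell (median 1.15), the latter Mycn, whose call was lost in 6 of 23 alternatives, with the highest adjusted p without the wild-type day 1 libraries (0.284). Myc itself rose from 35.6 ± 4.54 to 54.8 ± 14.1 CPM (adjusted p = 0.00814), a call lost without the second knockout day 0 library (adjusted p = 0.0574). Srm, of polyamine synthesis, rose from 7.89 ± 0.871 to 37.5 ± 3.86 CPM, and Npm1, a nucleolar chaperone, from 259.9 ± 21.1 to 799 ± 67.8 CPM. Odc1, also of polyamine synthesis, and Nolc1, of the nucleolus, rose by 1.78 ± 0.10 and 1.70 ± 0.09 on the log2 scale. Among ribosomal protein genes 26 of 33 tested members rose and 0 fell (median 0.44), with Rps2 at 1.02 ± 0.14, and 13 rose without the wild-type day 1 libraries.

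Among ATF4 targets 26 of 30 tested members rose and 2 fell (median 1.62), with medians of 1.63 in wild type and 1.88 in the knockout. Atf4 itself rose from 88.8 ± 3.85 to 135 ± 11.7 CPM. Asns, asparagine synthetase, whose promoter is printed above, stood at 0.850, 2.39, 1.34 and 1.93 CPM at day 0 and at 14.0 and 10.9 CPM in wild type and 17.3 and 20.4 CPM in the knockout at day 1. Bcat1, the branched-chain aminotransferase, stood at 0.735, 0.682, 0.802 and 0.503 CPM at day 0 and at 27.2 and 18.7 CPM in wild type and 35.0 and 31.4 CPM in the knockout at day 1. The arginine transporter Slc7a3 rose from 0.115 ± 0.0552 to 5.59 ± 2.31 CPM, Phgdh, the first enzyme of serine synthesis, from 25.1 ± 4.38 to 99.2 ± 12.6 CPM and Trib3, a pseudokinase of this pathway, from 0.610 ± 0.0639 to 4.37 ± 1.93 CPM. A genotype difference in the day 1 change was called for no tested member of this list, and for only 0.0998% of all genes. At so low a share the absence of a call among 30 members says nothing about this list. Pycr1, of proline synthesis, and Aldh1l2, of mitochondrial folate, rose by 3.65 ± 0.25 and 3.99 ± 0.44 on the log2 scale. Ddit3, a pro-apoptotic factor of this pathway, rose by 0.62 ± 0.12. The members that fell were Ddit4, by 2.23, which glucocorticoids also induce, and Cebpg. The call of Cebpg was lost in 9 of 24 alternatives, among them limma on unscaled FPKM values plus 1 (adjusted p = 0.609) and both knockout day 1 libraries left out (adjusted p = 0.43).

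All 20 cytosolic aminoacyl-tRNA synthetases, which load amino acids onto tRNA, rose (median 1.15). Aars, for alanine, stood at 35.5, 33.5, 36.2 and 30.1 CPM at day 0 and at 114 and 102 CPM in wild type and 144 and 130.1 CPM in the knockout at day 1, and Lars, Yars and Mars1 rose by 1.60 ± 0.09, 1.60 ± 0.10 and 1.53 ± 0.11 on the log2 scale. In glycolysis and hypoxia 15 of 20 tested members rose and 1 fell (median 0.86), the latter Pdk1, which limits the use of pyruvate in mitochondria. Hk2, which traps glucose in the cell, rose from 13.6 ± 1.28 to 53.4 ± 8.35 CPM, and the glycolytic enzymes Gapdh and Tpi1 rose from 35.5 ± 6.65 to 113 ± 8.10 CPM and from 22.4 ± 2.27 to 80.1 ± 2.71 CPM. Vegfa, the vascular growth factor, rose by 2.26 ± 0.21. In cholesterol synthesis 15 of 21 tested members rose and 1 fell (median 0.72). The synthetic enzymes Fdps, Idi1 and Sqle rose by 1.46 ± 0.10, 1.32 ± 0.14 and 1.26 ± 0.13, and the member that fell was Abca1, which exports cholesterol, from 94.6 ± 5.02 to 39.4 ± 10.3 CPM.

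In folding and secretion by the endoplasmic reticulum (ER) 23 of 27 tested members rose and 1 fell (median 0.90), the latter Herpud1. Its call was lost in 6 of 24 alternatives, among them limma on unscaled FPKM values plus 1 (adjusted p = 0.53) and both knockout day 1 libraries left out (adjusted p = 0.258). Hspa5, the main ER chaperone, whose promoter is printed above, stood at 262, 249, 253 and 280.0 CPM at day 0 and at 615 and 654 CPM in wild type and 506 and 511 CPM in the knockout at day 1, and Hsp90b1, its partner, rose by 1.06 ± 0.11 on the log2 scale. Xbp1, the secretory factor of plasma cells, rose from 49.9 ± 4.11 to 129.6 ± 12.6 CPM, Derl3, of ER quality control, from 2.66 ± 1.15 to 12.5 ± 1.30 CPM and Sdf2l1, a cofactor of Hspa5, from 8.94 ± 1.58 to 34.0 ± 3.20 CPM. Tmed6, a cargo receptor, stood at 0.0919, 0.0650, 0.0651 and 0.0795 CPM at day 0 and at 7.06, 7.49, 8.33 and 10.1 CPM at day 1.

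Among heat shock and oxidative stress genes 9 of 21 tested members rose and 5 fell (median 0.19). The chaperones Hsp90ab1 and Hspd1 rose by 1.02 ± 0.10 and 1.22 ± 0.10 on the log2 scale, and Mt2, a metallothionein, by 1.54 ± 0.32. Hspa1b, an inducible chaperone, stood at 347, 414, 419.6 and 312 CPM at day 0 and at 102 and 244 CPM in wild type and 28.2 and 85.1 CPM in the knockout at day 1. The call of its fall (adjusted p = 0.0335) was lost in 7 of 24 alternatives, with the highest adjusted p without the knockout day 1 libraries (0.0996). Hspa1a, a near copy with which it shares reads, fell with an adjusted p of 0.0434, lost in 9 of 24 alternatives. Dnajb1, a cofactor of these chaperones, fell from 117 ± 5.83 to 48.2 ± 12.3 CPM. Hmox1, haem oxygenase, was not called (adjusted p = 0.194). Of immediate-early genes 6 of 22 tested members rose and 8 fell (median 0.04), where 27.6% of all genes went each way. Without the knockout day 1 libraries 5 fell, and the sign of the median changed in 5 alternatives. Atf3 rose by 1.136 ± 0.16, whereas Egr3, Dusp2 and Klf2 fell from 19.7 ± 2.55 to 6.95 ± 0.891 CPM, from 71.6 ± 5.97 to 27.3 ± 4.805 CPM and from 123 ± 13.05 to 54.98 ± 10.6 CPM.

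Genes that glucocorticoids induce fell: 0 of 15 tested members rose and 13 fell (median -1.58), with 10 falling without the wild-type day 1 libraries. Tsc22d3, the glucocorticoid-induced leucine zipper, stood at 359 and 298 CPM in wild type and 398 and 385 CPM in the knockout at day 0 and at 88.4 and 109 CPM in wild type and 81.4 and 68.6 CPM in the knockout at day 1. Ddit4, an inhibitor of mTOR, stood at 108, 58.7, 96.9 and 69.4 CPM at day 0 and at 15.8, 21.7, 18.8 and 14.5 CPM at day 1. Klf9 fell from 6.90 ± 0.360 to 2.30 ± 0.249 CPM, and Fkbp5, a co-chaperone of the receptor, from 42.2 ± 7.54 to 21.6 ± 3.64 CPM. The groups did not overlap for any of these 4 genes. Il7r and Cxcr4, also of this list, are genes of lymphocytes as well. Of the clock genes, which follow the hour of day, 9 of 16 fell and 1, Ciart, rose, while 6 fell and 2 rose without the wild-type day 1 libraries. Dbp fell from 4.34 ± 0.850 to 2.50 ± 0.0869 CPM and Nr1d2 from 19.1 ± 2.63 to 9.97 ± 0.863 CPM. Nr1d1 fell by 1.15 on the log2 scale (adjusted p = 0.0186), a call lost in 7 of 23 alternatives, with the highest adjusted p without the wild-type day 1 libraries (0.204). The hour of sampling is not given in the labels, and its part in these changes was not tested.

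Markers of red pulp macrophages, which clear old red cells, mostly fell: 4 of 21 tested members rose and 13 fell (median -0.69). The summed level of the 23 listed markers was 369 to 442 CPM over the day 0 libraries and 151 to 236 CPM over those of day 1. Mrc1, the mannose receptor (mm10, chromosome 2, 14229392 to 14332057, plus strand), stood at 26.1, 33.4, 25.1 and 25.8 CPM at day 0 and at 2.16, 1.54, 2.38 and 2.47 CPM at day 1. Cd163, the haemoglobin scavenger, stood at 6.45, 7.36, 7.55 and 5.38 CPM at day 0 and at 0.133, 0.0803, 0.351 and 0.0859 CPM at day 1. Every day 1 library was below every day 0 library for both. Vcam1, an adhesion molecule, fell from 61.5 ± 6.15 to 10.1 ± 0.959 CPM, Hpgd, which breaks down prostaglandins, from 15.9 ± 1.53 to 1.45 ± 0.209 CPM, Trf, transferrin, from 33.5 ± 2.81 to 3.26 ± 0.919 CPM and Timd4, a receptor for dying cells, from 1.22 ± 0.242 to 0.178 ± 0.0911 CPM. The members that rose were Spic, the factor that defines these macrophages, from 7.31 ± 0.492 to 13.5 ± 2.22 CPM, Siglec1, an interferon-induced lectin, from 2.57 ± 0.662 to 8.69 ± 2.44 CPM, Cd5l and Il18bp. Cd5l rose by 1.09 ± 0.24, a call lost without both knockout day 1 libraries (adjusted p = 0.0585), and the call of Il18bp was lost without both knockout day 1 libraries (adjusted p = 0.233). Without the knockout day 1 libraries 2 of the list rose. In the list of marginal zone macrophages 5 of 8 tested members rose and 2 fell (median 0.86), with Nr1h3, a sterol sensor, and Msr1, a scavenger receptor, at 2.02 ± 0.20 and 1.84 ± 0.18, and the 2 that fell were Cd209a and Cd209d.

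Markers of conventional dendritic cells also mostly fell: 2 of 21 tested members rose and 14 fell (median -1.06). Clec9a and Tlr11, of the cross-presenting subset, fell from 4.95 ± 0.735 to 0.884 ± 0.244 CPM and from 2.97 ± 0.766 to 0.226 ± 0.0524 CPM, and Apol7c from 10.9 ± 1.05 to 1.57 ± 0.709 CPM. The summed level of the list was 702 to 777 CPM at day 0 and 697 to 756 CPM at day 1, and these ranges overlapped. Among markers of plasmacytoid dendritic cells 6 of 16 tested members rose and 8 fell (median -0.56), a median that was above 0 when only genes with an FPKM of 1 or more were kept. The summed level of the list was 456 to 566 CPM at day 0 and 516 to 554 CPM at day 1. Siglech, their surface lectin, stood at 9.05, 6.66, 8.31 and 8.42 CPM at day 0 and at 1.03, 0.482, 0.803 and 0.430 CPM at day 1, and Smim5 fell by 2.42 on the log2 scale. Bst2, which interferon also induces, rose from 13.8 ± 2.68 to 63.2 ± 10.9 CPM.

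Among markers of mature neutrophils 10 of 16 tested members rose and 0 fell (median 1.03). Trem1, an amplifier of inflammation, rose from 3.47 ± 0.556 to 11.6 ± 3.11 CPM, Il1r2, a decoy receptor, from 4.18 ± 1.03 to 12.7 ± 4.66 CPM and Stfa2l1, a protease inhibitor, from 0.840 ± 0.302 to 3.67 ± 1.38 CPM. S100a9, an abundant calcium-binding protein of these cells, was not called, at 265, 480.4, 329.6 and 293 CPM at day 0 and 623, 290.0, 605 and 636 CPM at day 1 (adjusted p = 0.0949), nor were S100a8 (adjusted p = 0.163) and Ly6g (adjusted p = 0.0749). The second wild-type day 1 library lay within the day 0 range for S100a9. The summed level of the list was 576 to 915 CPM at day 0, 651 and 1394 CPM in wild type and 1314 and 1365 CPM in the knockout at day 1. Without the knockout day 1 libraries 5 members rose, and without those of wild type 13. In the list of neutrophil precursors and progenitors 0 of 16 tested members rose and 5 fell (median -1.05), and that share of falls is near the 27.6% of all genes. Kit, of progenitors, fell from 11.4 ± 1.88 to 4.91 ± 1.34 CPM. Fcnb and Cebpe, of granule-forming stages, had overlapping groups (adjusted p = 0.0446 and 0.0371). Their calls were lost in 6 of 24 and 10 of 24 alternatives, both wild-type day 1 libraries left out among them (adjusted p = 0.521 and 0.506). Over the list 3 members fell without those libraries and 10 without the knockout day 1 libraries.

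Monocyte markers went both ways: 9 of 20 tested members rose and 7 fell (median 0.07), and 4 fell when the day 1 libraries of either genotype were left out. The median was below 0 in 4 alternatives. Ly6c2, which marks inflammatory monocytes and has a near copy, Ly6c1, rose from 34.7 ± 3.98 to 167 ± 50.8 CPM, Fcgr1, a high-affinity Fc receptor, from 2.99 ± 0.201 to 9.97 ± 2.92 CPM and Clec4e, a receptor for microbial lipids, from 3.78 ± 1.03 to 13.9 ± 3.98 CPM. Ccr2, the receptor for Ccl2, fell from 47.7 ± 11.3 to 27.5 ± 8.86 CPM, a call lost without both knockout day 1 libraries or the second knockout day 0 library (adjusted p = 0.0612 to 0.0638). Fn1, fibronectin, fell by 2.04 on the log2 scale, a call lost without both wild-type day 1 libraries or the first wild-type day 1 library (adjusted p = 0.0502 to 0.123).

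T cell markers fell in 25 of 27 members and rose in 0 (median -0.83). The summed level was 1448 to 1661 CPM at day 0, 928 and 1027 CPM in wild type at day 1 and 738 and 873 CPM in the knockout at day 1. Il7r, a survival receptor of naive T cells, stood at 118, 110.3, 133 and 175 CPM at day 0 and at 22.9, 30.4, 36.7 and 20.7 CPM at day 1. Cd3e, a chain of the T cell receptor complex, stood at 31.4, 32.0, 30.8 and 30.1 CPM at day 0 and at 14.9, 18.2, 13.8 and 12.01 CPM at day 1. The groups overlapped for neither gene. Cd4 fell from 61.7 ± 5.56 to 31.9 ± 5.56 CPM and Cd8a from 43.7 ± 3.89 to 25.8 ± 6.31 CPM. Lef1, a factor of naive cells, fell by 1.40 on the log2 scale and Themis by 1.71. Among genes of T cell activation and regulation 5 of 19 tested members rose and 5 fell (median -0.06), near the 27.6% of all genes each way. The sign of this median changed in 8 alternatives. Batf, a factor of activated lymphocytes, rose from 8.36 ± 1.22 to 33.5 ± 8.09 CPM and Lag3, an inhibitory receptor, by 1.23 ± 0.18, whereas Gata3 fell from 5.41 ± 0.511 to 2.33 ± 0.238 CPM and Havcr2 by 1.79. Cd69, an early activation marker, was not called (adjusted p = 0.139).

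Among natural killer and cytotoxic markers 3 of 21 tested members rose and 14 fell (median -0.93). Klrb1c, known as NK1.1, fell from 16.8 ± 3.64 to 6.72 ± 0.940 CPM, and Klra8, which has a near copy in Klra9, from 10.1 ± 2.18 to 2.95 ± 0.354 CPM. The 3 that rose were the granzymes Gzma, Gzmb and Gzmc, proteases of cytotoxic granules, and 1 rose without the wild-type day 1 libraries. Gzmb stood at 5.44, 3.93, 5.88 and 5.27 CPM at day 0 and at 33.9 and 35.4 CPM in wild type and 27.1 and 21.5 CPM in the knockout at day 1, and Gzmc rose by 1.82 ± 0.42 on the log2 scale.

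B cell identity genes fell more often than they rose: 4 of 27 tested members rose and 17 fell (median -0.58). Their summed level was 6291 to 7165 CPM at day 0 and 6989 to 7799.6 CPM at day 1. Ighm and Mzb1, which rose, are in the plasma cell list too, so their fragments enter the summed level of both lists. Their part in these sums was not tested. Fcer2a, of follicular B cells, fell from 113 ± 5.00 to 44.1 ± 6.06 CPM, and Cd55, a complement inhibitor, from 139 ± 20.9 to 31.4 ± 9.05 CPM. The members that rose were Fcrl5, from 18.5 ± 2.08 to 68.8 ± 11.6 CPM, Mzb1, a chaperone of immunoglobulin, from 28.2 ± 5.34 to 72.2 ± 5.38 CPM, Cd22 and Ighm. The call of Cd22 was lost in 8 of 24 alternatives, with the highest adjusted p without the knockout day 1 libraries (0.169). In the list of B cell activation and germinal centre genes 6 of 20 tested members rose and 3 fell (median 0.12), the share of rises being near the 27.6% of all genes. Without the knockout day 1 libraries 3 rose. Rgs13, a regulator of G protein signals, fell by 2.13 on the log2 scale, and Egr3 is given above. Mybl1 rose by 0.84 ± 0.21, a call that was lost without the knockout day 1 libraries (adjusted p = 0.0984).

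Among plasma cell genes 15 of 22 tested members rose and 3 fell (median 0.70), with 13 rising without the day 1 libraries of either genotype. Prdm1, the factor that ends the B cell programme, rose from 5.96 ± 0.665 to 16.6 ± 2.64 CPM, and Ell2, which favours secreted immunoglobulin, from 16.1 ± 2.07 to 48.6 ± 4.21 CPM. Ighg2b, an immunoglobulin heavy chain, stood at 52.9, 26.0, 38.6 and 32.1 CPM at day 0 and at 207 and 209 CPM in wild type and 235 and 270.3 CPM in the knockout at day 1. The summed level of the list was 3585 to 4784 CPM at day 0 and 6755 to 7947 CPM at day 1. Ighg2c rose by 1.23 ± 0.34 (adjusted p = 0.0197), with overlapping groups, a call lost in 5 of 24 alternatives. Igha was not called, at 28.9, 19.5, 157 and 131 CPM at day 0 and 32.6, 10.9, 16.03 and 12.5 CPM at day 1 (adjusted p = 0.143). Both knockout day 0 libraries were above the other 6 for Igha.

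Markers of basophils, mast cells and eosinophils fell: 1 of 19 tested members rose and 12 fell (median -1.16), and the member that rose was Hdc, which makes histamine, a call lost without both knockout day 1 libraries (adjusted p = 0.129). Ccr3, the eotaxin receptor, stood at 9.12, 10.9, 11.7 and 12.2 CPM at day 0 and at 1.73, 1.55, 1.15 and 2.30 CPM at day 1, and Alox15 fell from 4.01 ± 1.01 to 1.07 ± 0.288 CPM. Ear6, of eosinophil granules, fell at an adjusted p of 0.0139, a call lost without both wild-type day 1 libraries or the first wild-type day 1 library (adjusted p = 0.0558 to 0.208). Prg2, a granule protein too, fell at an adjusted p of 0.0447, a call lost in 8 of 24 alternatives. Among markers of erythroid precursors 0 of 23 tested members rose and 15 fell (median -1.88), and 0 fell when the day 1 libraries of either genotype were left out. Slc4a1, the anion exchanger of red cells, stood at 26.6 and 99.3 CPM in wild type and 53.5 and 90.6 CPM in the knockout at day 0 and at 18.9 and 5.41 CPM in wild type and 4.27 and 18.9 CPM in the knockout at day 1. Its call was lost in 10 of 24 alternatives. The 2 libraries of a group differed widely, and the summed level of the list was 634 to 1961 CPM at day 0 and 235 to 639 CPM at day 1. Red cells were lysed before RNA was taken, and the part of that step was not tested. Of megakaryocyte and platelet genes 0 of 16 tested members rose and 4 fell (median -0.52), and that share of falls is near the 27.6% of all genes. The number that fell was 6 without the knockout day 1 libraries and 1 when only genes with an FPKM of 1 or more were kept. Among the 4 were Itgb3, an integrin, from 31.8 ± 3.60 to 12.6 ± 0.366 CPM, and Vwf by 1.47 on the log2 scale.

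In the endothelial list 3 of 13 tested members rose and 4 fell (median -0.15), both shares near the 27.6% of all genes. The number that fell was 2 without the day 1 libraries of either genotype. Kdr, a receptor of Vegfa, rose from 1.29 ± 0.136 to 5.76 ± 1.53 CPM, and Stab2, of the sinus lining, fell from 5.08 ± 0.720 to 1.17 ± 0.401 CPM. In the stromal list 5 of 14 tested members rose and 3 fell (median 0.25), and 1 rose without the wild-type day 1 libraries. The summed level of the stromal markers went the other way from their median, from 367 to 431 CPM at day 0 to 224 and 266 CPM in wild type and 172 and 177 CPM in the knockout at day 1. Among the stromal markers is Cr2, which also counts as a B cell identity gene here, and its part in this sum was not tested. The medians of these lists changed sign in the unscaled fit (endothelial) or with a filter of FPKM 1 (stromal and epithelial). With that filter, which drops genes of low level, 0 members rose in the endothelial, stromal and epithelial lists. In the epithelial list 4 of 9 tested members rose and 2 fell (median 0.69), while its summed level was 8.08 to 9.42 CPM at day 0 and 7.51 to 11.1 CPM at day 1. Cldn2, a tight junction gene, had no fragment at day 0 and stood at 0.416 and 0.335 CPM in wild type and 1.28 and 2.38 CPM in the knockout at day 1, at least 16.8-fold higher against the floor of 3 fragments per day 0 library. Cldn7 likewise had none at day 0 and 51 fragments at day 1, and Cdhr2, of brush borders, 13 and 309. Cldn2 and Cldn7 passed the filter on counts only through day 1, so they could only be called as rises. These 3 genes were higher in all 4 day 1 libraries. Cldn2 and Cdhr2 had the most fragments in the second knockout day 1 library (111 and 118), and Cldn7 did not (10). Amy2a5, an exocrine pancreas gene, had 53 and 160 fragments in the second wild-type and second knockout day 1 libraries and none in the other 6. Whether other tissue in the samples gave fragments of Cldn2, Cldn7 or Cdhr2 was not tested.

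Among regulators of cell death 12 of 25 tested members rose and 6 fell (median 0.22). Bcl2a1d, a survival gene with near copies, rose from 7.91 ± 1.16 to 30.1 ± 2.96 CPM, and Mlkl, the executor of necroptosis, from 1.29 ± 0.345 to 4.24 ± 0.748 CPM. The pro-apoptotic genes Bmf and Bbc3 fell from 26.5 ± 1.19 to 9.55 ± 0.734 CPM and from 5.47 ± 2.04 to 2.08 ± 0.309 CPM.

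The first-day change was then compared between the genotypes. Of the 9950 genes called over both, a choice that itself favours genes that moved alike in both, 5594 were called in each alone with the same sign. In wild type 4134 genes rose (22.9%) and 4097 fell (22.7%), and in the knockout 4077 rose (22.6%) and 3599 fell (19.9%). The difference between the genotypes' changes was called for 18 genes (0.0998%), 5 higher (0.0277%) and 13 lower in the knockout (0.0721%), and 2361 had an unadjusted p under 0.05. DESeq2 called 112 higher and 88 lower, and limma on FPKM plus 1 called 0 and 0. Without the first wild-type day 0 library edgeR called 374 higher and 81 lower, and without either knockout day 1 library 0 and 0. No member of the 44 gene lists was among the edgeR calls. Interferon-stimulated effectors had median changes of 1.88 in wild type and 1.498 in the knockout, T cell markers -0.68 and -1.10, replication genes 1.86 and 1.94, and red pulp macrophage markers -1.03 and -0.60. All 5 genes with the higher change in the knockout were protein-coding, and 9 of the 13 with the lower were small nuclear, nucleolar or Cajal body RNAs. The share of these types among all tested genes is not given here, so the counts are not a result about RNA types. The 9 are not all separate either, since reads of Snora73a and Snora73b cannot be told apart. Over all genes the difference moved with GC content, from a median of -0.17 where GC was 40% or less to 0.36 where it was above 60%, and its part in these calls was not tested beyond the fit with a GC offset, which called 17 higher and 36 lower.

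**Figure D4:**
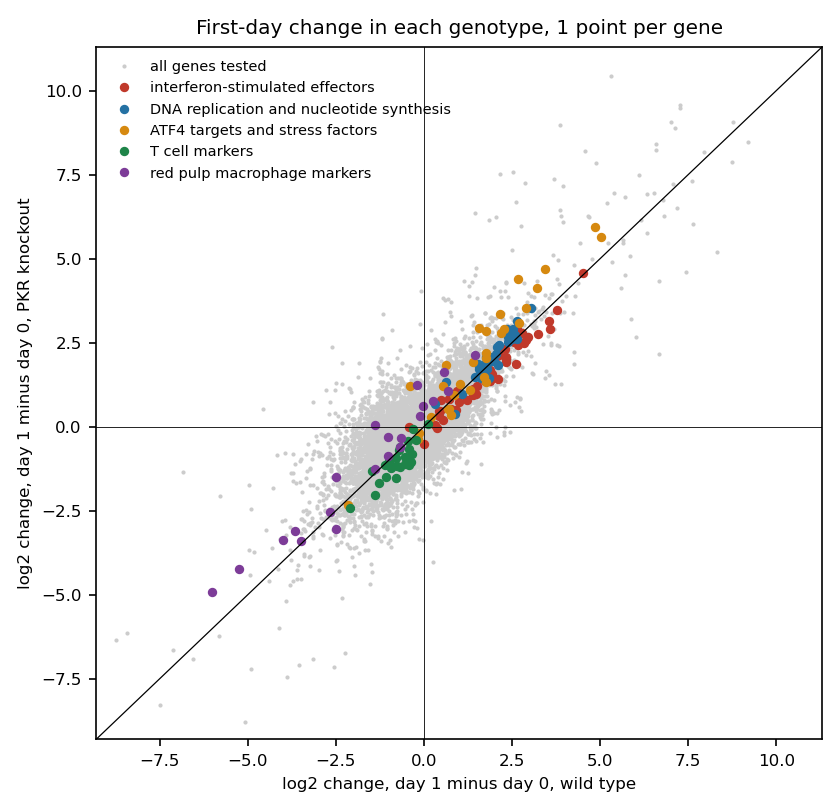
Each point is a gene, with its log2 change from day 0 to day 1 in wild type on the x axis and in the knockout on the y axis, with 5 lists coloured and a diagonal line of equal change. The medians in wild type and knockout were 1.88 and 1.498 for interferon-stimulated effectors and -0.68 and -1.10 for T cell markers.

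To follow the levels further, day 2 was compared with day 1 in both genotypes. This comparison shares the day 1 libraries with the one above, so values are set side by side. Of 17801 genes tested 4178 were higher at day 2 (23.5%) and 3550 lower (19.9%). With limma on unscaled FPKM plus 1 the counts were 2217 and 6782. Interferon-stimulated effectors fell in 48 of 49 members, with a median of -1.64. Isg15 fell by 1.95 and Irf7 by 2.54 on the log2 scale from day 1 to day 2. The cytokine list fell in 14 of 20 members, with Il6 down by 1.08, mature neutrophil markers in 13 of 16, and Myc and ribosome biogenesis genes in 27 of 29. Saa3 was not called between the days (adjusted p = 0.767). Eif2ak2 was not called over both genotypes either (adjusted p = 0.12). With all 16 libraries scaled together it went from 101 and 96.1 CPM at day 1 to 32.8 and 42.5 CPM at day 2 in wild type, where the day 0 libraries stood at 24.9 and 26.6 CPM. In the knockout it went from 43.0 and 37.0 CPM to 47.5 and 21.5 CPM. Both wild-type libraries of day 2 were thus below both of day 1, whereas the knockout libraries of day 2 lay on either side of those of day 1, and the change within each genotype was not tested.

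Mitosis, ER, plasma cell and T cell lists went on in the direction of day 1. All 30 mitosis genes were higher at day 2 (median 1.05), as were 20 of 32 replication genes, all 27 genes of ER folding and secretion (median 1.40) and 20 of 22 plasma cell genes (median 1.79). Xbp1 rose by a further 2.16 and Derl3 by 2.46 on the log2 scale. T cell markers fell again in 26 of 27 members (median -1.34). Of the glucocorticoid-responsive genes 6 of 15 were higher at day 2 and 1 lower, and of the red pulp macrophage markers 2 of 20 were higher and 7 lower, with Mrc1 higher by 1.81.

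**Figure D5:**
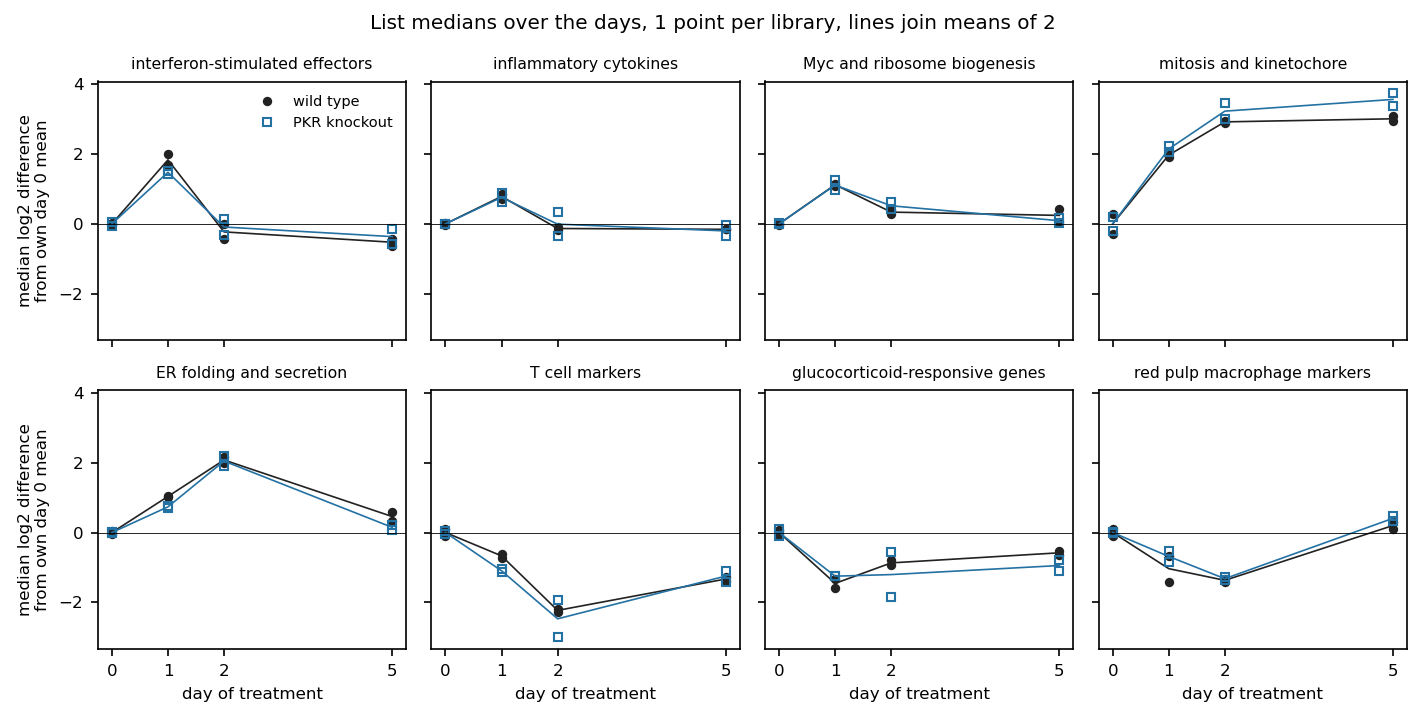
Each point is 1 library and gives the median over a list's members of the log2 difference from the day 0 libraries of its own genotype, against the day of treatment, with lines through the means of 2. Interferon-stimulated effectors stand between 1.44 and 1.99 at day 1 and between -0.45 and 0.14 at day 2, and mitosis genes between 1.93 and 2.22 at day 1 and 2.89 and 3.46 at day 2.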

How the data were processed

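Spleen RNA was measured in 16 pooled libraries, of which the day 0, day 1 and day 2 libraries were compared. Day 5 libraries enter the plot of list medians over the days and the alternative fit of all 16 libraries. The deposited tables give for each transcript a fragment count, a signal normalized to all fragments of the library (FPM) and FPKM. Per the file headers these columns are the authors' fragment count, FPM signal and FPKM. The values show whole counts, fragments counted in more than 1 isoform, and FPM and FPKM that follow from the counts, the library total and the transcript length. Per the submitters' processing notes the genome was mm10, and bcl2fastq 2.17.1.14, Trimmomatic, HISAT2 and TopHat were used. The counter, its use of strand and the annotation release were not found in the labels or headers. Of 142604 transcripts, 141374 matched GENCODE M21, which gave coordinates.

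Each of 55291 gene symbols was represented by its protein-coding transcript with the highest mean count, or any transcript where it has none. Counts were tested with edgeR 4.0.16 (R 4.3.3; TMM factors on total fragments, filterByExpr, robust quasi-likelihood fit). The fit of 8 libraries on genotype and day left 5 residual degrees of freedom, and 1 mean per group, for each genotype and their difference, 4. The SE beside a log2 change was derived from the test, as the size of the change divided by the square root of its quasi-likelihood F statistic. P-values were adjusted by Benjamini-Hochberg over all genes, with a threshold of 0.05. DESeq2 1.42.0 and limma 3.58.1 (log2 of the deposited FPKM plus 1 or 0.1) were alternatives. On simulated data of 17667 genes, 25 of 50 genes changed 1.5-fold were recovered, 44 of 50 at 2-fold, 47 of 50 at 4-fold and 50 of 50 at 8-fold, and 14 unchanged genes were called. Only these genes, with a mean of 1 CPM or more, were changed, with rises and falls in equal number. In the real data 55.1% of genes were called, so the simulated shares need not hold there. The biological coefficient of variation was 14.9%.

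Members and gene lists were chosen with earlier results of these data known. The genes named were Eif2ak2, the 12 largest rises and the 12 largest falls by the smaller change of the 2 genotypes (mean FPKM of 1 or more, groups not overlapping), up to 4 of the largest changes per list, and a fixed panel; some genes that this rule covers are not reported here. Cldn7, Cdhr2, Cxcl11, Amy2a5 and other members named as exceptions or to complete a direction were chosen after their values were seen. Whether strand was used bears on antisense and overlapping genes. Libraries are numbered, but nothing in the labels says that a number marks a shared litter or day.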

Additional observations from a re-analysis of the deposited data

Results flagged for a closer look

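A difference between the genotypes' first-day changes was called, by the test of the difference itself (edgeR quasi-likelihood, adjusted p = 0.0483 to 0.0486), for 10 genes given here. The difference is knockout minus wild type on the log2 scale. Every adjusted p lay just under 0.05. Summed isoforms, the FPKM filter and limma on FPKM plus 1 each called 0 genes for this difference. Among protein-coding genes the difference was 1.21 for Atxn2l, whose own changes were -0.55 in wild type and 0.66 in the knockout. Bicra had a difference of 2.28, Mid1 of 2.09, Pitpnm2 of 1.16 and Shank1 of 2.10. Among RNA genes of the nucleolus the difference was -1.14 for Rnu3a, -1.14 for Snora73a, -1.32 for Snora73b and -1.24 for Snord17. Snhg3, the host gene within which Snora73a and Snora73b lie, had a difference of -1.10, and reads of the 3 cannot be told apart. GC content was 54.9% to 61.4% in the 5 protein-coding genes and 42.7% to 56.1% in the other 5, and its part was not tested for single genes. Groups hold 2 libraries each, so single libraries that stand apart within a group were not tested.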

How the results depend on the processing

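Over the alternatives 3864 to 6255 genes rose between day 0 and day 1. Of the called genes named here, 242 of 242 kept direction and call with DESeq2, and calls were kept by 215 of 237 without both wild-type day 1 libraries, 216 of 242 without both knockout day 1 libraries and 226 of 242 without the second library of both day 1 groups, the last chosen after seeing the data, as was the GC offset. With limma on unscaled FPKM plus 1 and plus 0.1, genes that fell numbered 3001 and 3031 over both genotypes and 1832 and 1843 in wild type, and between day 1 and day 2 2217 and 2268 rose and 6782 and 6797 fell. Leaving out 1 library at a time left 2642 to 4056 genes falling in wild type (fewest without the second day 1 library) and 2271 to 3854 in the knockout (fewest without the first day 1 library; 2384 without the second). The genotype difference was called higher in the knockout and lower in it, respectively, for 112 and 88 genes by DESeq2, 408 and 151 with no filter on low counts, 24 and 8 with all 16 libraries and 17 and 36 with the GC offset. It was 0 and 0 with the FPKM filter, with summed isoforms and with limma on FPKM plus 1, 0 and 1 with limma on FPKM plus 0.1, 3 higher with the size factors of DESeq2 and 0 higher with library size as the sum of kept transcripts. Without 1 library it ranged from 0 to 374 higher and from 0 to 81 lower, the most without the first wild-type day 0 library. With the replicate number as a block it was 20 and 23, and 4977 genes rose and 4854 fell between day 0 and day 1. Correlations of same-numbered deviations between groups ran from -0.108 to 0.224, the highest between the day 0 groups of the genotypes. With 2 libraries per group they cannot decide whether equal numbers mark a shared litter or day. Of genes not called, Hmox1 changed sign to -0.0039 and Cd69 to 0.021 without both knockout day 1 libraries. The cause was not tested for any of these. Of the lists with 0 members called in a direction by edgeR, mature neutrophil markers had 1 member falling at an unadjusted p under 0.05 and the others 0. Over the alternatives up to 2 interferon-stimulated effectors and 1 mature neutrophil marker were called lower, and up to 7 pancreas and fat markers higher. Depth limits the genes with few fragments, such as Ccl12, Ccl7, Cldn2 and Cd209d, to bounds or totals.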
